A study of Mus musculus with 27 samples.

Results

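C2C12 cells are a mouse myoblast line that fuses into multinucleated myotubes when serum is lowered. The comparison made here was between myotube cultures collected 60 h and 54 h after a serum pulse, the last 6 h interval of a time course of 9 collections. All 3 libraries of 60 h were set against all 3 libraries of 54 h, so 6 of the 27 libraries entered the contrast, and every gene that passed a filter on low counts was tested, 12687 of the 20446 in the table. Both groups had been kept in 10% FBS as myoblasts, seeded at 50000 cells per well, switched to 2% horse serum near confluence, and exposed to 50% horse serum for 2 h. The labels give no difference between them other than the hour of collection. All cultures come from 1 established line and all received the pulse, so no unpulsed control is in the comparison. The labels do not state that the 3 libraries of a time point came from separate cultures, so each p-value reflects the scatter among libraries, part or all of which may be technical.

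A strong serum pulse sets the circadian clocks of cultured cells to a common phase. In that clock the activators CLOCK and BMAL1 (gene Arntl) switch on the Per and Cry repressors, which return to block their own activators, while REV-ERB and ROR receptors tune Arntl and outputs such as Dbp carry the rhythm to other genes. Cultured myotubes also respond to the medium around them. When oxygen at the cell layer falls, prolyl hydroxylases stop marking HIF-1 alpha for destruction, and the HIF factor binds the letters ACGTG near genes of glycolysis, mitophagy and vessel growth. When sterols run low, SREBP factors switch on the cholesterol pathway, and when cells stretch or spread, YAP and TEAD switch on matrix-associated genes such as Ccn2.

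The libraries of 54 h held 18.5, 26.6 and 20.8 M counted reads, and those of 60 h held 21.4, 25.2 and 22.8 M. No pair of libraries within a time point was alike to within counting error (chi-square per degree of freedom from 5.66 to 45.7), so none looked like a second run of another. Along the first principal component of the 6 libraries, which held 47.4% of the variance, the libraries numbered 2 stood apart from the rest, and along the second, which held 19.4%, the 54 h libraries lay on one side and the 60 h libraries on the other. None of the 40 sarcomere genes of the marker list was at 0, and their summed level was 38660 to 39580 CPM (counts scaled to library size) at 54 h and 39660 to 40840 CPM at 60 h. Markers of immune and endothelial cells summed to 3.81 to 4.46 CPM at 54 h and 3.86 to 4.10 CPM at 60 h, with Adgre1, Tyrobp, Cd3e and Emcn among the genes at 0 in all 6 libraries.

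Few genes passed the adjusted threshold over the interval. By edgeR's quasi-likelihood test with Benjamini-Hochberg adjustment over all genes tested, 6 genes rose (0.0473% of those tested) and 3 fell (0.0236%) at an adjusted p under 0.05, 9 in all (0.0709%). At an unadjusted p under 0.05 there were 310 genes higher (2.44%) and 311 lower (2.45%), together 621 (4.89%). In 799 genes (6.3%) every 60 h library lay above every 54 h library, and in 700 (5.52%) every one lay below. The genes that rose were Txnip, Pdk1, Ddx17, Col25a1, Bnip3 and Ak4, and those that fell were Ahrr, Ccn2 and Tbc1d4. These are levels in whole cultures, in which fewer cells of a type and less RNA per cell cannot be told apart.

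Among the genes that rose, 3 of 6 belong to the list of hypoxia targets, and all of these encode mitochondrial proteins. That list was chosen with earlier results of these data known, and 28 of the 12687 genes tested belong to it. Pdk1 encodes the kinase that shuts pyruvate dehydrogenase (chr2:71873224-71903858, mm10). It read 49.0, 42.8 and 42.2 CPM at 54 h and 74.1, 64.3 and 60.9 CPM at 60 h. Every 60 h library stood above every 54 h library, and the means of 44.7 ± 3.79 and 66.4 ± 6.83 CPM (SD, n = 3 each) differed 1.49-fold. The log2 change was 0.57 ± 0.08 (SE), with an adjusted p of 0.00107 in edgeR's quasi-likelihood test.

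Bnip3 encodes an outer mitochondrial membrane protein that marks mitochondria for autophagy (chr7:138890836-138909519). Its libraries read 17.7, 21.4 and 18.1 CPM at 54 h against 35.1, 33.3 and 27.2 CPM at 60 h, with no overlap, a 1.67-fold rise (log2 0.74 ± 0.12, adjusted p 0.00967). Ak4 encodes a nucleotide kinase of the mitochondrial matrix (chr4:101419277-101466995). It was read at 2.32, 2.92 and 2.09 CPM at 54 h and at 7.63, 4.49 and 4.28 CPM at 60 h. Library 1 of 60 h was far above the other two, which still lay above all 54 h libraries. The log2 change of 1.14 ± 0.21 (adjusted p 0.0258) was the largest rise among the genes called, and its error was also the widest of the 6 that rose.

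The remaining genes that rose have other roles. Txnip, an inhibitor of thioredoxin and of glucose uptake (chr3:96557957-96561883), read 94.0, 106 and 102 CPM at 54 h and 145, 137 and 138 CPM at 60 h. Its groups were far apart relative to their spread, and its adjusted p of 4.19e-04 was the smallest of all genes (log2 change 0.475 ± 0.06). Ddx17, an RNA helicase that works with myogenic factors (chr15:79527736-79546741), read 233, 236 and 238 CPM at 54 h and 296, 283 and 291 CPM at 60 h. That change was small, 1.23-fold, but the libraries of each time point lay close together (log2 0.30 ± 0.04, adjusted p 0.0032). Col25a1, a membrane-bound collagen that muscle displays to ingrowing motor axons (chr3:130131501-130599877), read 12.3, 9.78 and 13.0 CPM at 54 h and 22.5, 20.9 and 23.8 CPM at 60 h. The groups did not overlap, and the rise was 1.92-fold (log2 0.94 ± 0.15, adjusted p 0.00497).

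Of the genes that fell, Ahrr had the largest change. It encodes the repressor that the aryl hydrocarbon receptor induces against itself (chr13:74211118-74292331). Its libraries read 5.80, 5.69 and 5.29 CPM at 54 h and 1.91, 2.85 and 2.41 CPM at 60 h, so that the lowest 54 h library was above the highest 60 h library by a wide margin. The level was 2.33-fold lower at 60 h (log2 -1.22 ± 0.20, adjusted p 0.00739). Ccn2, a secreted matricellular protein long used as a readout of YAP and of TGF beta (chr10:24595442-24598683), read 502, 444 and 436 CPM at 54 h and 309.6, 311 and 302 CPM at 60 h. The 60 h libraries lay close together and far below those of 54 h (log2 -0.58 ± 0.10, adjusted p 0.0214). Tbc1d4, the Akt substrate that holds glucose transporter vesicles inside muscle cells (chr14:101442360-101609191), read 20.5, 18.6 and 21.0 CPM at 54 h and 14.98, 14.7 and 14.4 CPM at 60 h (log2 -0.45 ± 0.08, adjusted p 0.034).

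Since fewer than 5 genes fell, the next by p are given as values. Epha4, an ephrin receptor, had a log2 difference of -0.39 ± 0.08 and Tk1, the thymidine kinase of S phase, one of -0.44 ± 0.09, each with an adjusted p of 0.0751 and with no overlap between the groups.

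**Figure D1:**
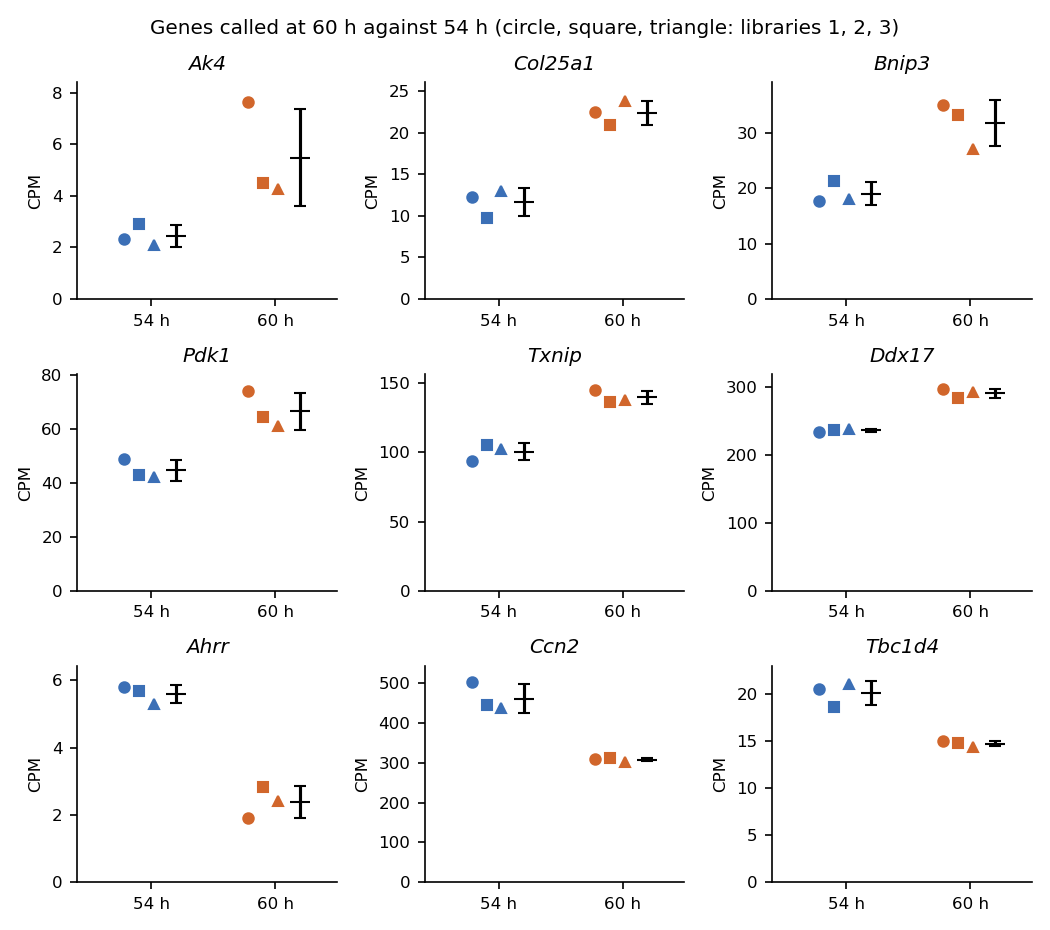
Level in CPM (y axis, from 0) of the 9 genes called, in each library of 54 h (blue) and 60 h (orange); symbols mark library numbers and the black bar is the mean ± SD of 3 libraries. In every panel the 60 h points lie all above or all below the 54 h points, and Ak4 has 1 library, at 7.63 CPM, apart from the others of its group.

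The calls leaned on single libraries to different degrees. Txnip, Pdk1, Ddx17 and Col25a1 stayed past the threshold when any 1 of the 6 libraries was left out, with highest adjusted p-values of 0.0089, 0.0205, 0.0326 and 0.0439. Ahrr lost its call only without library 1 of 60 h (adjusted p 0.111). Ak4 lost it without library 1 or 3 of 54 h or library 1 of 60 h (up to 0.29), and Bnip3 without those or library 2 of 60 h (up to 0.119). Ccn2 (up to 0.154) and Tbc1d4 (up to 0.245) kept it only when library 2 of 54 h was the one left out. Every one of these fits kept the direction, with log2 changes from 0.83 to 1.31 for Ak4, 0.67 to 0.84 for Bnip3 and -0.62 to -0.51 for Ccn2. Fewer calls stayed when all libraries of 1 number were left out at every time point. Of the 9, 0 were kept without number 1, only Txnip without number 2 and only Bnip3 without number 3. The spread was estimated over all 27 libraries; fitted on the 6 libraries alone, edgeR's test called 0 genes (lowest adjusted p 0.244), while 646 had an unadjusted p under 0.05.

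The hypoxia list as a whole leaned upward. Of its 30 genes, 28 passed the filter, and of these 3 rose and 0 fell, against 0.0473% of all genes rising. At an unadjusted p under 0.05, 14 were higher and 3 lower, against 2.44% and 2.45% of all genes. In 13 of the 28 all 60 h libraries lay above all 54 h libraries, and in 1 all lay below, against 6.3% and 5.52% of all genes. The median log2 difference of the 28 was 0.19, beside -0.01 over all genes tested. The list was chosen with earlier results of these data known, so its direction is a description. Centred on each gene's mean over the 6 libraries, the median over its members was -0.11, -0.06 and -0.13 at 54 h and 0.16, 0.10 and 0.06 at 60 h on the log2 scale, so the 3 libraries of each time point fell on the same side.

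The oxygen sensing genes are the start of the pathway. Hif1a, which encodes the oxygen-regulated subunit itself and was not a member of the target list, read 287, 318 and 304 CPM at 54 h and 386, 388 and 376 CPM at 60 h. All 60 h libraries were higher, and the log2 difference of 0.34 ± 0.09 had an adjusted p of 0.238. Egln1 and Egln3 encode the prolyl hydroxylases that mark HIF-1 alpha and are themselves its targets. Egln1 read 82.2, 77.8 and 79.7 CPM at 54 h and 95.5, 87.9 and 89.0 CPM at 60 h, and the difference for Egln3 was of similar size, 0.17 ± 0.06 on the log2 scale. Neither passed the adjusted threshold (0.683 and 0.757).

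Other targets had larger differences without passing. Ankrd37, a small ankyrin repeat protein, read 2.27, 1.72 and 1.02 CPM at 54 h and 2.86, 3.85 and 2.94 CPM at 60 h (log2 0.96 ± 0.24, adjusted p 0.177). Vldlr, a lipoprotein receptor, read 5.47, 5.69 and 5.68 CPM at 54 h and 9.54, 8.06 and 7.57 CPM at 60 h (log2 0.58 ± 0.14, adjusted p 0.177). In both, the groups did not overlap. P4ha1, a collagen prolyl hydroxylase, read 307, 344 and 286 CPM at 54 h against 398, 401 and 353 CPM at 60 h, and its log2 difference was 0.30 ± 0.08 (adjusted p 0.278). Vegfa, the vessel growth factor, read 143, 152 and 132 CPM at 54 h and 189.9, 170.2 and 172 CPM at 60 h, with a log2 difference of 0.32 ± 0.10 (adjusted p 0.445). Ndrg1, Kdm3a, Ero1l and Bnip3l were higher in every 60 h library by 0.27, 0.29, 0.26 and 0.19 on the log2 scale.

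A minority of the list went the other way. Stc2, a secreted glycoprotein (-0.32 ± 0.12), and Ppp1r3c, a glycogen-targeting phosphatase subunit (-0.52 ± 0.24), were below at an unadjusted p under 0.05. Their libraries overlapped, while those of the other lower member, left out of the text, did not. The remaining 11 members lay between -0.10 and 0.36, and among them the glucose transporter gene Slc2a1 stood at 0.25 ± 0.14 and the crosslinking enzyme gene Lox at -0.03 ± 0.13.

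**Figure D2:**
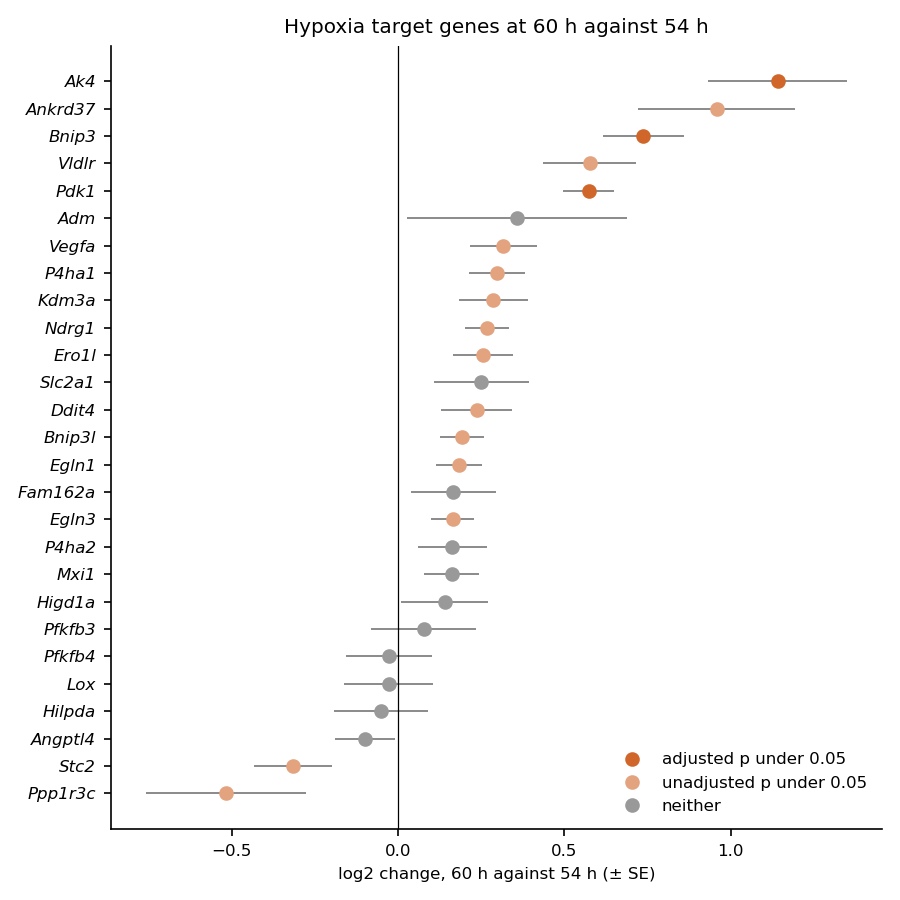
Log2 difference between 60 h and 54 h (x axis, ± SE) of 27 of the 28 hypoxia targets tested, one per line. Dark orange marks the 3 genes at an adjusted p under 0.05, light orange the other 13 at an unadjusted p under 0.05; 21 of the 27 points lie to the right of 0.

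Promoter windows from RefSeq (GRCm38.p6) were searched on both strands for ACGTG, the core of the HIF binding element, in the 250 bases before and 50 after each gene's start. The letters were found in 25.6% of the 9972 windows of tested genes and in 12 of the 22 windows matched to hypoxia targets. Because 22 of 28 members is under 80%, the check of that share is void. A match describes the letters only. No ACGTG was present in the windows of Pdk1 or Ak4. The 3 windows below are shown because their genes lay among those with a higher level in every 60 h library and carry the letters; each is the 250 bases up to the start, 5′ to 3′ on the gene's strand, with the match in capitals.
Bnip3 (chr7:138909507-138909756, minus strand): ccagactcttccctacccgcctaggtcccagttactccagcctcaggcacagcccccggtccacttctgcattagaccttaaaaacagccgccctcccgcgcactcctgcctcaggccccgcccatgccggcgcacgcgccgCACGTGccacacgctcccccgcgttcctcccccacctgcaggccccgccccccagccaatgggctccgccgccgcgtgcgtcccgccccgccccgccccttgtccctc
Ankrd37 (chr8:45999851-46000100, minus strand): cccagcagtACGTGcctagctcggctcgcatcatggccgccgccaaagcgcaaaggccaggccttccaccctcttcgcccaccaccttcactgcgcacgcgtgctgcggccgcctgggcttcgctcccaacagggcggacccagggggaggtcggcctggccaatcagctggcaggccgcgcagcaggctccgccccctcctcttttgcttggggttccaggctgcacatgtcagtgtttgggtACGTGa
P4ha1 (chr10:59323046-59323295, plus strand): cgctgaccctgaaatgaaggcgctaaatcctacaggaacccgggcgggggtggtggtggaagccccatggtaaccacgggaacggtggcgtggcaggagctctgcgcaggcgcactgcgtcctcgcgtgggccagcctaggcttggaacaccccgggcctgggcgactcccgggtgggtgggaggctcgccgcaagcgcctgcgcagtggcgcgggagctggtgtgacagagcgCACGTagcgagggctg
In the window of Bnip3 the letters occur on both strands, 108 and 107 bases before the start, and their overlap reads CACGTG, the E-box that CLOCK and BMAL1 also bind and that 10.1% of all windows hold. Ankrd37 had matches 241 and 6 bases before its start, and P4ha1 1 match on the opposite strand, 16 bases before.

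Glycolysis and glycogen genes, which overlap the reach of HIF, had no member called. Of 26 tested, 22 were above 0 (median log2 difference 0.10), beside 6014 of all 12687 genes. By library, the centred medians of the list were -0.08, 0.05 and -0.12 at 54 h and 0.05, 0.09 and 0.01 at 60 h. The hours thus overlapped. At an unadjusted p under 0.05, 3 were higher and 0 lower (2.44% and 2.45% of all genes). Slc16a3, the transporter that exports lactate, read 29.1, 34.5 and 25.7 CPM at 54 h and 48.7, 44.8 and 41.1 CPM at 60 h. The groups did not overlap, and the log2 difference was 0.59 ± 0.13 (adjusted p 0.0865). Pfkl, the liver-type phosphofructokinase, read 118, 138 and 106 CPM at 54 h and 182, 182 and 149 CPM at 60 h (log2 0.50 ± 0.12, adjusted p 0.177). For both, library 3 was the lowest of each time point.

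Genes of cholesterol synthesis also stood above 0 in number, with small differences. None of the 26 tested was called. At an unadjusted p under 0.05 there were 10 higher and 0 lower (2.44% and 2.45% of all genes), 12 had no overlap between the groups in the upward direction (6.3% over all genes), and the median was 0.17. Hmgcs1, which makes HMG-CoA for the pathway, read 543, 613 and 553 CPM at 54 h and 752, 753 and 725 CPM at 60 h (log2 0.38 ± 0.11, adjusted p 0.262). Nsdhl, a late demethylation enzyme, had the smallest p of the list and read 112, 116 and 106 CPM at 54 h and 132, 131 and 139 CPM at 60 h (log2 0.27 ± 0.06, adjusted p 0.136). Sqle, which acts on squalene, and Fdft1, which makes it, differed by 0.24 ± 0.06 and 0.23 ± 0.06. Of 19 genes of fatty acid synthesis (median 0.10), 5 were higher and 0 lower at an unadjusted p under 0.05 (2.44% and 2.45% of all genes). Among the 5 were Acss2 (0.33 ± 0.09), which makes acetyl-CoA from acetate, and the elongase Elovl6 (0.27 ± 0.08).

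The sterol element letters TCACCCCAC occurred in 0.582% of all windows and in 1 of the 18 matched to the list, that of Hmgcs1. Since 18 of 26 members is under 80%, the check of this share is void too, and the window only shows where the letters lie, in capitals, 137 bases before the start.
Hmgcs1 (chr13:119690101-119690350, plus strand): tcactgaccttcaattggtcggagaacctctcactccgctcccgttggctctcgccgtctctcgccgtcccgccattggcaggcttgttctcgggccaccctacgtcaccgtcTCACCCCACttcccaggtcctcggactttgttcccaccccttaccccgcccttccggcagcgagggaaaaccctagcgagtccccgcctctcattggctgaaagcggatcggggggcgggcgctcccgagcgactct

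Around Ahrr, the list of the aryl hydrocarbon receptor pathway had 8 of 10 genes tested, of which 1 fell and 0 rose (0.0236% and 0.0473% of all genes). Cyp1b1, a detoxifying cytochrome that the receptor induces, read 87.1, 75.3 and 81.1 CPM at 54 h and 66.0, 63.2 and 67.9 CPM at 60 h. All 60 h libraries were lower (log2 -0.31 ± 0.08, adjusted p 0.257). Ahr itself had means of 64.0 ± 13.3 and 60.7 ± 7.80 CPM (SD, n = 3 each), with overlapping libraries. Tiparp, another target, had a log2 difference of 0.15 ± 0.09, opposite in sign to those of Ahrr and Cyp1b1, and Aldh3a1 one of -0.27 ± 0.18.

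Targets of YAP and TEAD leaned downward around Ccn2. Of 23 tested, 20 were below 0, beside 6673 of all 12687 genes, and the median was -0.13. One member, Ccn2, fell (0.0236% of all genes), and 6 were lower and 0 higher at an unadjusted p under 0.05 (2.45% and 2.44% of all genes). Ccn1, the close relative of Ccn2, read 291, 271 and 249.2 CPM at 54 h and 225, 231 and 206 CPM at 60 h (log2 -0.29 ± 0.08, adjusted p 0.319). Crim1 (-0.23 ± 0.07) was lower in every 60 h library, while the libraries of Fjx1 and Wwc1 overlapped. In this list library 1 of 54 h stood above the other two, with medians centred on each gene's mean of 0.24, -0.06 and 0.10 at 54 h and -0.09, -0.09 and 0.01 at 60 h. Without the libraries numbered 1, the median was -0.04.

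ERK feedback genes and EGF-family ligands had 0 members called of 23 tested (median -0.18). At an unadjusted p under 0.05, 6 were lower and 1 higher (2.45% and 2.44% of all genes). Ereg, the growth factor epiregulin, read 35.4, 27.4 and 32.7 CPM at 54 h and 20.7, 24.8 and 23.8 CPM at 60 h, with no overlap (log2 -0.46 ± 0.10, adjusted p 0.112). Dusp5, a phosphatase that ends ERK signals, differed by -0.40 ± 0.12. Spry1, a Sprouty inhibitor of the same pathway, went the other way, from 80.5, 80.0 and 74.7 CPM to 95.0, 94.3 and 90.1 CPM (log2 0.25 ± 0.06, adjusted p 0.192). Here too, library 1 of 54 h had the highest centred median, 0.20, beside -0.11 and 0.11 in libraries 2 and 3. Without the libraries numbered 1, the median of the list was -0.11.

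Smooth muscle markers, a set of actin-associated genes that fibroblast-like cells can also express, were below 0 in 8 of 8 members tested (median -0.19). Over all 12687 genes, 6673 were below 0. Of the 8 markers, 2 were lower at an unadjusted p under 0.05 (2.45% of all genes) and 0 were called. Lmod1, an actin filament nucleator, read 47.9, 44.4 and 48.2 CPM at 54 h and 39.5, 37.3 and 33.0 CPM at 60 h (log2 -0.36 ± 0.11, adjusted p 0.429). The median was -0.06 without the libraries numbered 1. Genes of mitosis were below 0 in 28 of 32 members (median -0.09), beside the same 6673 of all 12687 genes, and 0 were called. Among them were Ccnf at -0.28 ± 0.08, Aurkb at -0.25 ± 0.10, Kif23 at -0.18 ± 0.08 and Anln at -0.16 ± 0.07. By library, the centred medians of the mitosis list overlapped, with 0.032, 0.101 and 0.022 at 54 h and -0.105, 0.034 and -0.051 at 60 h. Replication-dependent histone genes, whose messages lack a poly(A) tail and are kept in total RNA libraries, were below 0 in 23 of 25 (median -0.20). The share over all genes below 0 is again 6673 of 12687. Hist1h2ab had the smallest p of them and read 24.9, 34.2 and 26.2 CPM at 54 h and 20.4, 17.8 and 14.8 CPM at 60 h (log2 -0.69 ± 0.18, adjusted p 0.238). Histone copies are near-identical, so reads may have been split among them in counting. The centred medians of the histone list also overlapped, with -0.06, 0.27 and 0.09 at 54 h and -0.12, 0.04 and -0.22 at 60 h.

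The summed level of the smooth muscle list was 5527 to 6171 CPM at 54 h and 5208 to 5973 CPM at 60 h, with none of its 10 genes at 0, and that of the fibroblast markers 8284 to 9182 and 8446 to 9940 CPM, with Thy1 and Tcf21 at 0. Both ranges overlapped between the hours. Among 33 DNA replication genes 0 were called, and the median was -0.02. Pold1, the catalytic subunit of polymerase delta, stood at -0.26 ± 0.08 and Cdc6, which loads the helicase at origins, at 0.31 ± 0.12, so that members with an unadjusted p under 0.05 lay on both sides.

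The FoxO list, of atrophy and autophagy genes that FoxO factors drive when insulin signals fade, held 2 of the 6 genes that rose, Txnip and Bnip3, among 24 tested (median 0.07), against 0.0473% of all genes rising. Bnip3 is also 1 of the 3 hypoxia targets that rose, so the lists share that call. Ccng2, a cyclin of cell cycle exit, read 55.3, 64.5 and 55.9 CPM at 54 h and 73.1, 74.5 and 64.9 CPM at 60 h (log2 0.27 ± 0.11, adjusted p 0.766). Its groups were just apart, as were those of Cdkn1b, the inhibitor p27 (0.13 ± 0.05). TGF beta and activin signals (median -0.05) had 4 of 25 genes lower and 0 higher at an unadjusted p under 0.05 (2.45% and 2.44% of all genes). Among them were the inhibin subunit Inhbb (-0.12 ± 0.06) and the repressor Id3 (-0.21 ± 0.10), and none was called.

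None of the 20 core clock genes was called by edgeR's quasi-likelihood test over this interval, and 4 had an unadjusted p under 0.05, beside 4.89% of all genes. Dbp, the output that CLOCK and BMAL1 drive through E-boxes, read 7.07, 7.08 and 6.65 CPM at 54 h and 9.54, 9.70 and 9.09 CPM at 60 h. The libraries of each hour lay close together and apart from those of the other hour (log2 0.45 ± 0.10, adjusted p 0.0897). Cry1, a repressor, read 24.98, 26.9 and 27.1 CPM at 54 h and 20.9, 24.4 and 20.9 CPM at 60 h (log2 -0.25 ± 0.08, adjusted p 0.388). Per2, the partner repressor, had a log2 difference of -0.35 ± 0.16 and Nr1d2, which encodes REV-ERB beta, one of 0.21 ± 0.09, with 1 or more libraries overlapping in each. Arntl differed by 0.16 ± 0.09, Per1 by -0.47 ± 0.29, Ciart by 0.40 ± 0.22 and Nr1d1 by 0.22 ± 0.41. Clock, Bhlhe40, Bhlhe41, Rora, Arntl2, Nfil3, Cry2, Per3 and Tef lay between -0.09 and 0.15, each with overlapping libraries. Npas2 and Hlf were at low levels (means of 0.92 and 0.18 CPM at 54 h). Over all 20 clock genes the log2 differences ran from -1.15 to 0.445. The lowest was among the 16 genes at an unadjusted p of 0.05 or more in edgeR's test.

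The interval from 30 to 36 h is the same part of a 24 h cycle, 1 day earlier, and shares no library with the last interval. Over it, edgeR's test called 17 genes higher (0.134%) and 7 lower (0.0552%). All 9 genes called in the last interval had the same sign there, and Pdk1, Col25a1 and Ahrr were called there as well, 3 of the 24 called in that interval (12.5%) and 3 of the 9 here. Pdk1 differed by 0.49 ± 0.08, Col25a1 by 0.85 ± 0.14 and Ahrr by -1.31 ± 0.21. Dbp (0.29 ± 0.10) and Cry1 (-0.40 ± 0.08) also kept their signs, as did 18 of the 20 clock genes, beside 59.8% of all genes tested. Among the hypoxia targets the sign was shared in 23 of 28, and in the cholesterol list in 22 of 26. In mitosis it was shared in 4 of 32 and in the histones in 3 of 25, whose medians a day earlier were 0.27 and 0.22, and in the smooth muscle markers in 2 of 8 (median 0.14).

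**Figure D3:**
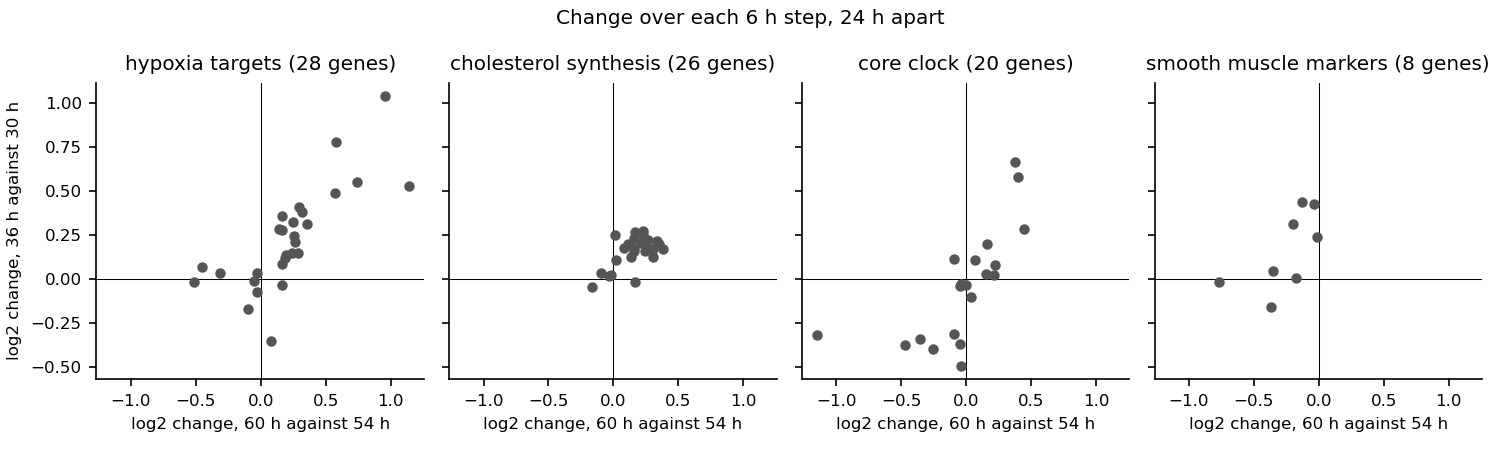
Log2 difference of each list member at 60 h against 54 h (x axis) and at 36 h against 30 h (y axis); one point per gene and lines at 0. Points of the hypoxia targets, cholesterol genes and core clock genes lie mostly in the quadrants of shared sign, and 6 of the 8 smooth muscle markers in that of opposite sign.

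Whether the change itself differed between the days was tested gene by gene in the same fit. With edgeR's quasi-likelihood test 0 genes passed (lowest adjusted p 0.212; 437 genes, 3.44%, at an unadjusted p under 0.05), limma-voom also called 0, and DESeq2 called 4, namely Tagln, Col8a2, Xdh and Txnip. Tagln, an actin-binding smooth muscle gene, differed by -0.13 ± 0.07 from 54 to 60 h and by 0.44 ± 0.08 from 30 to 36 h. Col8a2, a short-chain collagen, had -0.05 ± 0.08 and 0.54 ± 0.08. Xdh, xanthine dehydrogenase of purine breakdown, had 0.46 ± 0.15 and -0.62 ± 0.15, opposite in sign. Txnip, called in the last interval, had 0.475 ± 0.06 there and 0.11 ± 0.06 a day earlier, and edgeR's adjusted p for the difference was 0.432. The other genes among the 6 with the smallest p were Mcam (-0.20 ± 0.08 and 0.31 ± 0.08) and Asprv1 (-0.21 ± 0.19 and 0.99 ± 0.20), both at an adjusted p of 0.438.

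Intervals at the opposite part of the cycle gave the same signs for most of the genes called. From 42 to 48 h all 9 had the sign of the last interval, and Pdk1, Ahrr, Tbc1d4, Ddx17 and Col25a1 were called, 5 of the 17 genes called there (29.4%; 7 higher, 0.0552% of genes tested, and 10 lower, 0.0788%). From 18 to 24 h 8 of 9 shared it, with Ddx17 the exception at -0.04 ± 0.04, and Pdk1, Ak4, Tbc1d4 and Bnip3 were among the 236 called (1.69%; 124 higher, 0.977%, and 112 lower, 0.883%). By list, the sign of the last interval was shared from 42 to 48 h by 28 of 28 hypoxia targets, 20 of 26 cholesterol genes and 7 of 20 core clock genes, beside 7262 of all 12687 genes tested. From 18 to 24 h the hypoxia list shared the sign less fully. Vldlr (-0.98 ± 0.15, called lower), Ero1l (-0.23 ± 0.09), Vegfa (-0.09 ± 0.10), Hilpda (0.05 ± 0.14) and Lox (0.07 ± 0.13) had the opposite sign there, and the other members the same. These intervals were added after the data had been seen. Over the collections of 30, 36, 42, 48, 54 and 60 h in turn, the mean level of Pdk1 was 49.1, 68.9, 49.6, 64.7, 44.7 and 66.4 CPM. Bnip3 followed the same order, with 21.3, 31.2, 20.0, 27.2, 19.1 and 31.8 CPM. Ahrr ran opposite, with 4.52, 1.84, 4.83, 2.03, 5.59 and 2.39 CPM, and had been at 1.48 to 1.80 CPM at 12, 18 and 24 h. From 30 h on, Pdk1 and Bnip3 were thus higher, and Ahrr lower, at every second collection. At 12, 18 and 24 h the means were 36.3, 39.6 and 53.7 CPM for Pdk1 and 21.2, 19.3 and 28.0 CPM for Bnip3. The means thus alternated already from 18 h in Pdk1 and from 12 h in Bnip3. The labels do not say which cultures were pulsed or collected together.

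Dbp ran otherwise, with mean levels of 6.19, 7.54, 12.0, 13.5, 6.93 and 9.44 CPM over those 6 collections, so that 42 and 48 h were high and 30, 36, 54 and 60 h low. The mean of Ccn2 went up and down in turn from the first collection on, at 124, 191, 155, 281, 264, 433, 342, 460.3 and 308 CPM from 12 to 60 h. It was thus lower at 24, 36, 48 and 60 h than at the collection before each, while the libraries of 30 and 36 h overlapped. Txnip was at 139.9 ± 4.58 CPM at 60 h, above its means at the other 8 collections, which ran from 100.1 to 126 CPM.

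**Figure D4:**
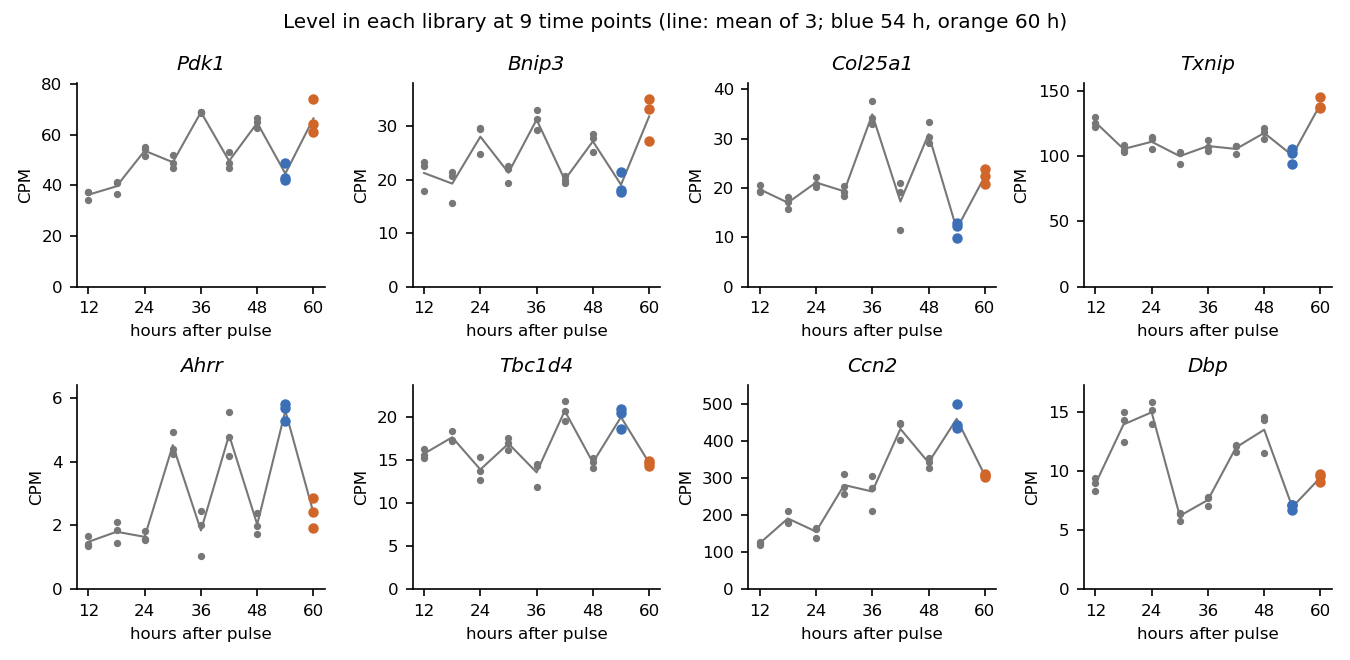
Level in CPM (y axis, from 0) of 8 genes in each of the 27 libraries against hours after the pulse; grey lines join the means of 3 libraries, with 54 h in blue and 60 h in orange. Pdk1, Bnip3 and Ahrr alternate between neighbouring collections from 30 h on. The mean of Pdk1 does so already from 18 h, and those of Bnip3 and Ccn2 from 12 h, whereas Dbp is high at 18, 24, 42 and 48 h.

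**Figure D5:**
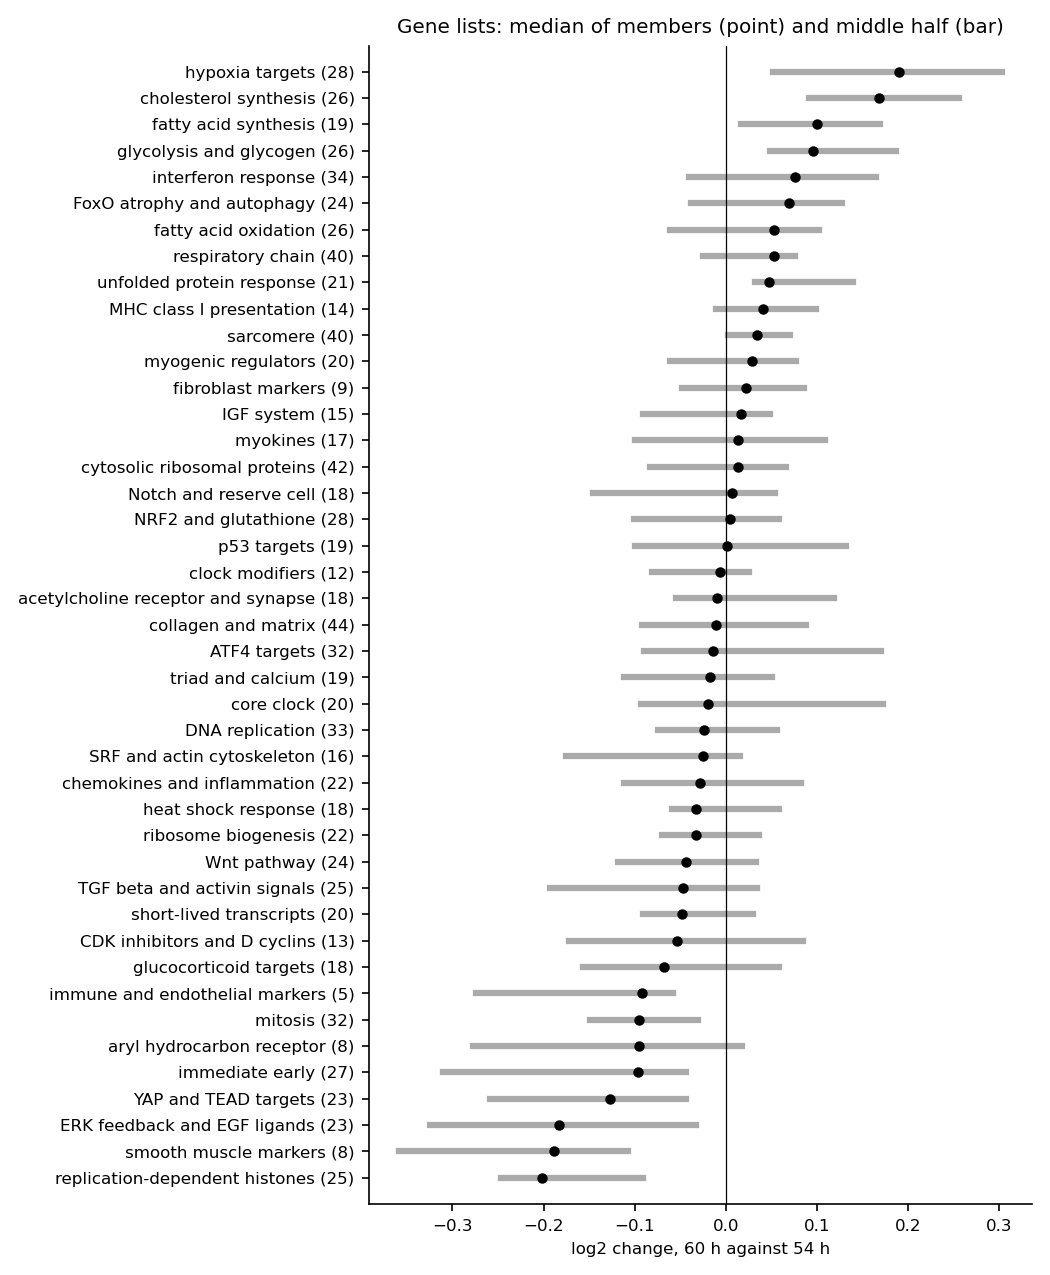
Median (point) and middle 50% (bar) of the log2 differences between 60 h and 54 h over the members of each gene list with 5 or more genes tested; the number tested is in brackets. Hypoxia targets and cholesterol synthesis have the highest medians, 0.19 and 0.17, and replication-dependent histones and smooth muscle markers the lowest, -0.20 and -0.19, beside -0.01 over all genes.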

How the data were processed

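What the authors deposited is a single matrix of raw counts, 20446 Ensembl genes by 27 libraries, with no scaling. The RNA was total RNA without ribosomal RNA and the kit kept strand, per the labels' protocols. The submitters' processing notes list Trim Galore 0.4.0, cutadapt 1.9.1, featureCounts and mm10. For the aligner, the annotation release and the strand setting, the sources used here give nothing. GENCODE M21 supplied names and positions for 20318 genes and left 128 unmatched.

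The time point in each title set its group. The filter was edgeR's filterByExpr (minimum count 10), and TMM gave the scaling. One quasi-likelihood model of the 9 time points was fitted to all 27 libraries (18 residual degrees of freedom), so that the spread was shared, and the contrast was 60 h minus 54 h. A call is a Benjamini-Hochberg adjusted p under 0.05 among the 12687 genes. Errors of log2 changes are standard errors from that fit. Lists are described by counts and medians, with no test. The tools were edgeR 4.0.16, DESeq2 1.42.0 and limma 3.58.1 under R 4.3.3. The scripts were tested on simulated counts. There the test of 60 h against 54 h recovered 28% of 50 genes changed 1.3-fold and 62% of 50 changed 1.5-fold. The test of the difference between days recovered 6% and 22%, so genes not called may still have changed.

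Genes named were those called whose groups did not overlap and whose mean reached 1 CPM, filled to 5 in a direction by p, all core clock genes, up to 4 members of each list with the smallest p, and the 6 with the smallest p for the difference between days. Some genes that the rule chose, and 1 hypoxia target, are left out of the text. Other hypoxia targets, further list members at an unadjusted p under 0.05, Hif1a and Ahr were named after their values were seen. The members and lists were chosen with earlier results of these data known. Alternatives were DESeq2, limma-voom, other scaling and filters, fewer libraries, the replicate number as a block, libraries left out, and stricter thresholds. The fit to 42 to 60 h alone and the other intervals were added after the data were seen.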

Additional observations from a re-analysis of the deposited data

How the results depend on the processing

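Over the 117 genes followed through the alternatives, 1647 of 1753 log2 changes kept their direction and side of the threshold, 37 lost a call, 49 gained one and 20 changed sign. The counts of genes higher and lower were 6 and 3 with edgeR's test, 18 and 13 with DESeq2 (all 9 genes kept), 5 and 1 at an adjusted p under 0.01, 3 and 1 with a fold of at least 1.5, and 2 and 2 in the 12 libraries of 42 to 60 h alone, added after the data were seen. In the 6 libraries alone they were 0 and 0. With limma-voom, 8 of the 9 genes kept their call, all but Ak4 (adjusted p 0.058), and without a filter all but Tbc1d4 (0.0806). Leaving out 1 library, or all libraries of 1 number, gave 0 to 7 genes higher and 0 to 4 lower; without the libraries numbered 1 both counts were 0 (306 genes at an unadjusted p under 0.05). A difference between days was called for 4 genes by DESeq2.

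The replicate numbers were not taken to pair the samples, since no label says what they stand for and not every same-numbered pair of deviations correlated above 0.1 (0.0777, 0.553 and 0.253); library 1 of 54 h correlated best with library 3 of 60 h (0.407). Levels nevertheless went with the number in many lists. At all 9 time points, the libraries numbered 2 had the highest median of the respiratory chain, glycolysis and unfolded protein response lists. Of the core clock, fatty acid synthesis, ERK feedback, TGF beta, Wnt, Notch, IGF, myogenic regulator and acetylcholine receptor lists they had the lowest. In the hypoxia list they were highest at 4 time points and lowest at 1. The main fit held no term for the number. With the number as a block, 79 genes were higher and 56 lower, the 9 among them, and 25 differed between days; by list, 9 hypoxia targets were higher and 1 lower, 6 cholesterol genes higher, 3 glycolysis genes higher, and 1 core clock gene higher and 1 lower; in the 6 libraries alone with the block, the counts were 7 and 6.

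Sign changes were in clock genes that were not called. Those of Npas2 and Rora, at 0.38 and 0.15 with all libraries, came only without library 2 of 54 h, and their highest values only without library 1 of 54 h. Tef turned from below to above 0, reading 0.000213 with DESeq2, 0.00305 with limma-voom, 0.00198 with the stricter filter, 0.000518 in the 6 libraries alone, 0.00305 there with the block, 0.00195 with the block and 5.89e-05 in the 12 libraries. With 1 library left out, log2 changes ran from -0.080 to 0.047 in Tef, -0.14 to 0.12 in Per3, -0.12 to 0.042 in Arntl2, -0.035 to 0.19 in Bhlhe40, -0.010 to 0.12 in Bhlhe41, -0.0011 to 0.93 in Npas2 and -0.033 to 0.45 in Rora. The cause was not tested. Depth limits most the genes near 1 CPM, such as Npas2.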

Other observations

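Muscle genes differed little over the interval. Of 40 sarcomere genes 0 were called and 32 were above 0 (median log2 difference 0.03), beside 6014 of all 12687 genes. The centred medians of this list by library overlapped, with 0.02 in library 2 of 54 h and -0.01 in library 1 of 60 h. Myom1, which ties thick filaments at the M line, read 249.8, 250.2 and 239.8 CPM at 54 h and 274, 289 and 287 CPM at 60 h (0.20 ± 0.06, adjusted p 0.314). Trdn, of the calcium release complex, stood at 0.29 ± 0.10 and Dmd, dystrophin, at 0.28 ± 0.09, both higher in every 60 h library. Respiratory chain genes had a median of 0.05 over 40 members, with none at an unadjusted p under 0.05, although Pdk1 and Bnip3 rose. Interferon response genes had 0 of 34 at that level and a median of 0.08, beside -0.21 from 30 to 36 h and 0.23 from 42 to 48 h. ATF4 targets had a median of -0.01 over 32 genes, with Ddit3 at 0.39 ± 0.13 and Cth at 0.43 ± 0.15, both higher in every 60 h library.

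Single genes stood out within otherwise level lists. Rps7, a ribosomal protein of the small subunit, read 23.1, 26.1 and 19.5 CPM at 54 h and 12.9, 8.58 and 10.6 CPM at 60 h (log2 -1.10 ± 0.33, adjusted p 0.385), while the median of the 42 ribosomal protein genes was 0.01. Ribosomal protein genes have near-identical processed copies, so its count is uncertain. Ptgs2, the inducible cyclooxygenase, read 130.2, 118 and 118 CPM at 54 h and 87.2, 98.2 and 101 CPM at 60 h (-0.35 ± 0.09, adjusted p 0.187), and Ccl2, a monocyte chemokine, went from 4.03, 6.71 and 4.32 CPM to 8.87, 7.61 and 6.73 CPM (0.61 ± 0.19). Nampt, the enzyme that salvages NAD and is clock-driven in many tissues, read 55.4, 60.4 and 56.4 CPM at 54 h and 71.9, 71.7 and 71.1 CPM at 60 h (0.32 ± 0.10, adjusted p 0.394).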
